A study of Mus musculus with 4 samples.

Results

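Class 12 is a cluster of 339 nuclei among the 7846 mouse mammary nuclei whose chromatin accessibility was profiled by single-nucleus ATAC-seq. The method uses a transposase that inserts adapters where DNA is accessible, and a combination of barcodes tells the nuclei apart. The members are the nuclei to which the authors' deposited table gives the class number 12, and each was assigned to its library through its identifier. The study compared wild-type CD1 mice, an outbred strain, at embryonic day 18 and at 8 weeks of age, with 2 biological replicates per stage. All cells had been sorted for the epithelial surface protein EpCAM and against lineage markers of other cell types. The labels do not say how many animals were pooled for a library. The labelled protocol starts from thawed cells, whereas the text on the design speaks of fresh sorting.

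The mammary epithelium has a basal layer, which includes contractile myoepithelial cells, and an inner luminal layer made of progenitors and hormone-sensing mature cells. The transcription factor p63, encoded by Trp63, is a master regulator of basal epithelial identity, while ETS factors such as Elf5 and Ehf, the grainyhead factor Grhl1 and the pioneer factor Foxa1 are associated with luminal cells. AP-1 is a dimer of FOS and JUN proteins that opens enhancers in many cell types and responds quickly to growth factors and stress.

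In fetal replicate 1, 92 of 882 nuclei belonged to class 12, a share of 10.4% (95% exact Clopper-Pearson interval 8.49 to 12.6%). In fetal replicate 2 the class held 247 of 1695 nuclei, or 14.6% (12.9 to 16.3%). The mean share was 12.5% ± 2.93 (SD, n = 2), and the intervals of the libraries did not overlap. None of the 2465 and 2804 nuclei of the adult libraries had this number, which allows a share of up to 0.122% and 0.107%, taken as 3 counts of the total and not as a Clopper-Pearson bound. These limits cover counting error only. Class 12 was found in all 16 tagmentation wells of each fetal library, as read from the barcodes, at 5.45 to 17.9% of the nuclei of a well in replicate 1 and 11.4 to 20.3% in replicate 2. No barcode was listed in more than 1 library.

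The other large fetal classes were class 4 with 470 fetal nuclei, class 5 with 538 and class 9 with 1037, and these were the classes of reference. Class 12 nuclei held a median of 5818 reads in replicate 1 and 7110 in replicate 2, against 6224.5 and 7081.5 in class 4, 4566 and 6707 in class 5, and 5807 and 8382 in class 9. The class as a whole held 629493 and 2178832 reads, so its values in replicate 1 carried the larger counting error. Promoter regions took a median of 24.1% and 22.3% of the reads of a class 12 nucleus, compared with 20.6% and 19.7% in class 4 and 25.8% and 24.2% in class 5. Because the authors drew the classes from the accessibility of these same nuclei, every comparison below is a description with no p-value, and a call is a call of size.

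The working label of these nuclei, fetal, low in AP-1 and leaning to the basal side, was set beside motif scores, which describe it and do not test it. The authors' deposited scores are chromVAR deviations, which give for each nucleus how far accessibility at regions with a motif departs from that of all nuclei, with values centred near 0. The Fos motif, the site bound by AP-1, averaged -3.76 in class 12 nuclei of replicate 1 and -4.79 in those of replicate 2. Class 4 stood at 0.02 and -0.03, class 9 at -1.09 and -0.97, and class 5 at -5.45 and -6.39. Over all 14 classes, only class 5 had a lower mean than the -4.27 of class 12, and the next class up was class 13 at -1.31. The Trp63 motif averaged 2.23 and 2.53 in class 12, below the 2.89 and 2.81 of class 4. It was far above the -0.61 and -0.77 of class 5 and the -0.78 and -0.71 of class 9. The adult classes 1 and 8 had Trp63 means of 3.08 and 3.88, and their Fos means were 0.45 and -0.02.

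**Figure D1:**
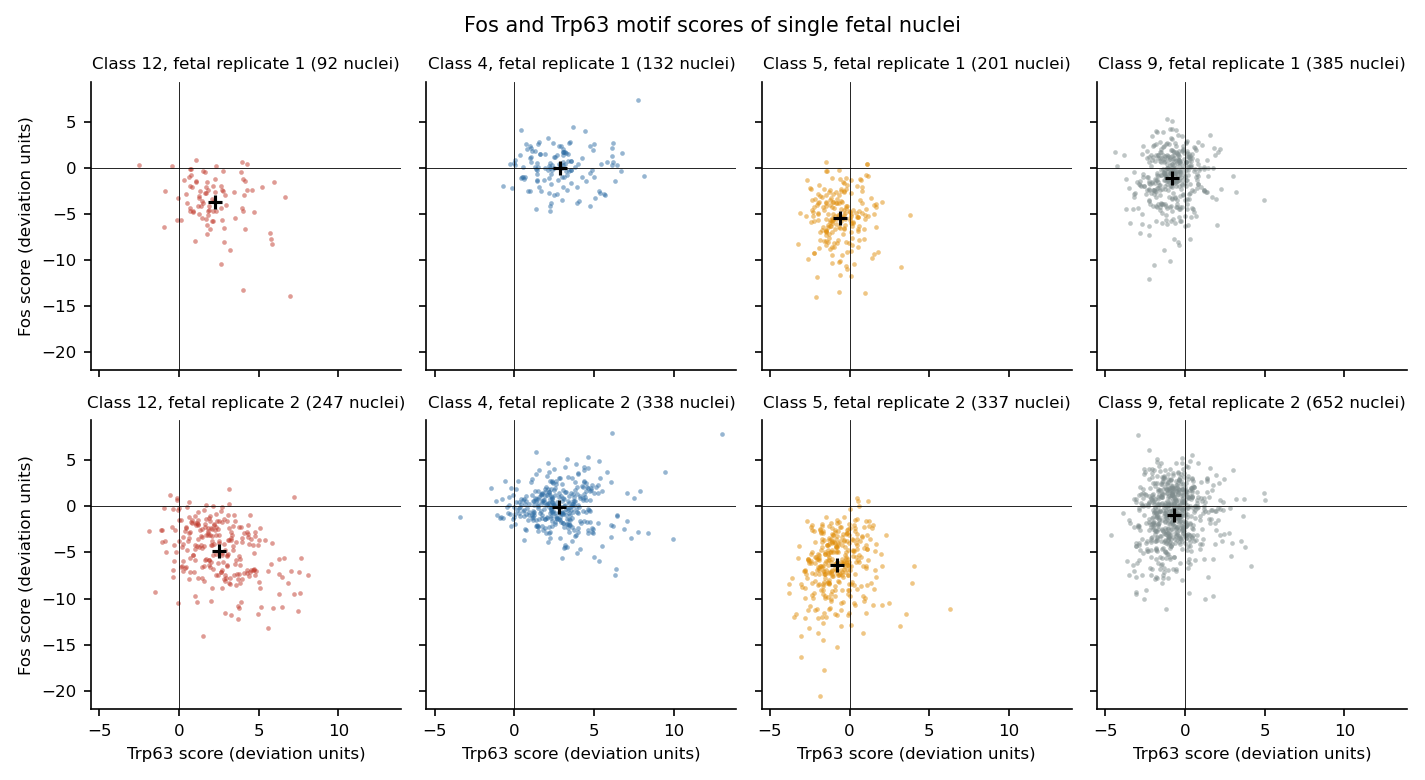
Fos motif score (vertical axis, deviation units) against Trp63 motif score (horizontal axis, deviation units) of every nucleus in fetal classes 12, 4, 5 and 9, with fetal replicate 1 in the upper row and replicate 2 in the lower row. Each point is a nucleus and the cross is the class mean; class 12 lies to the right as class 4 does and reaches down as class 5 does, with 89.1% and 87.9% of its nuclei below 0 for Fos and above 0 for Trp63.

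The combination was a property of single nuclei and not only of the average. A Fos score below 0 together with a Trp63 score above 0 was seen in 89.1% and 87.9% of class 12 nuclei, against 44.7% and 47.9% in class 4, 27.4% and 23.1% in class 5 and 14.03% and 14.6% in class 9. The boundary towards class 4 was gradual for Fos. In replicate 1 the Fos score of class 12 nuclei ran from -13.9 to 0.81 with a median of -3.36, and that of class 4 nuclei from -4.65 to 7.39 with a median of 0.18. The corresponding values in replicate 2 were -14.1 to 1.88 with a median of -4.26 in class 12, and -7.46 to 7.93 with a median of -0.05 in class 4. Of the class 12 nuclei, 58.7% and 72.5% lay below the 10th percentile of class 4 in the same library, so the remainder overlapped with its bulk.

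The Fos score within class 12 moved with sequencing depth. Across nuclei it correlated with log2 reads per nucleus at r = -0.35 in replicate 1 (92 nuclei) and -0.65 in replicate 2 (247 nuclei), and in class 5 at -0.64 and -0.71, whereas in class 4 the values were -0.09 and 0.03. The shallower nuclei of class 12, those below the class median of reads, averaged -3.28 and -3.08, and the deeper ones averaged -4.24 and -6.48. Both averages lay below those of class 4 at either depth, which were between -0.13 and 0.16. Fos and Trp63 scores of class 12 nuclei were negatively related (r = -0.28 and -0.35). The Trp63 score also moved with log2 reads per nucleus, at r = 0.21 and 0.33 in class 12 and 0.52 and 0.50 in class 4. In the deeper nuclei it averaged 2.53 and 3.15 in class 12 and 3.61 and 3.58 in class 4. In the shallower nuclei it averaged 1.92 and 1.91 in class 12 and 2.18 and 2.05 in class 4. The part of depth in the relation of the 2 scores was not tested.

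When all 388 distinct motif columns were compared, 11 lay at least 1 unit lower in class 12 than in class 4 in the mean and lower in each library (2.84% of motifs), and 0 lay as much higher (0%). The 11 were Fos, Fosb, Fosl1, Jun, Junb, Jund, Batf, Bach1, Bach2, Nfe2l2 and Smarcc1, which are AP-1 subunits, basic leucine zipper factors with related sites, and a chromatin remodelling subunit whose listed motif had nearly the Fos scores. Smarcc1 averaged -3.83 and -4.93 in class 12 and 0.02 and -0.03 in class 4. Jun, a core AP-1 subunit, averaged -1.37 and -1.86 against -0.18 and -0.33. The stress-induced antioxidant regulator Nfe2l2 averaged -2.06 and -2.69 against 0.02 and 0.05. In none of these motifs did the libraries of class 12 overlap with those of class 4, and in all of them replicate 2 was the lower library of class 12.

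The same 11 motifs, with no other, lay at least 1 unit lower in class 5 than in class 9 (2.84%), and 0 lay as much higher (0%). These are other nuclei than those of classes 12 and 4, although all came from the same libraries. Across the 388 motifs, the difference of class 12 from class 4 in replicate 1 correlated with that of class 5 from class 9 in replicate 2 at r = 0.941, and with the replicates exchanged at r = 0.965. These correlations run over motifs, many of which share sites, and carry no test. The median gap between the differences was 0.09 units over the 388 motifs. Most of these differed by less than 1 unit in both comparisons, so this median does not show that larger differences were of like size. The gap passed 0.5 units in 8 motifs, namely Bach1, Bach2, Ctcf, Fos, Fosl1, Jund, Smarcc1 and Trp63, and was largest in Jund at 0.72. All of them but Ctcf and Trp63 were among the 11 motifs. For Fos the difference was -4.27 between classes 12 and 4 and -4.89 between classes 5 and 9.

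Against class 5, class 12 was at least 1 unit higher in 9 motifs (2.32%) and lower in 9 (2.32%). The higher ones were Trp63 and its homologue Trp73, with Fos, Fosb, Junb, Jund, Bach1, Bach2 and Smarcc1. Trp63 differed by 3.07 units between the class means and Trp73 by 3.45, whereas Fos differed by 1.64. The lower ones were the luminal-associated Elf5, Elf3, Grhl1 and Foxa1, together with Foxc1, Foxc2, Id3, Nfix and Snai2. Elf5 averaged -1.01 and -0.99 in class 12, -0.96 and -1.03 in class 4, and 0.15 and 0.21 in class 5. Grhl1 averaged -0.75 and -0.83 in class 12, between the -1.42 and -1.39 of class 4 and the 0.95 and 1.22 of class 5. Foxa1 averaged -2.59 and -2.68, a level within the library values of class 4 (-2.53 and -2.77) and below those of class 5 (-1.39 and -1.88).

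The comparison of class 4 with class 9 gave 5 motifs higher (1.29%) and 13 lower (3.35%) by the same rule. All 5 of the higher motifs were among the 9 higher in class 12 than in class 5, and 8 of the 13 lower motifs were among the 9 lower ones. The difference of class 12 from class 5 in replicate 1 correlated with that of class 4 from class 9 in replicate 2 at r = 0.897, and the exchange of replicates gave r = 0.922, again over 388 motifs. Relative to class 9, which stands apart from class 12 in both respects, 2 motifs were at least 1 unit higher in class 12 (0.515%), Trp63 and Trp73, and 20 were lower (5.15%), with all 11 of the motifs named above among them.

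**Figure D2:**
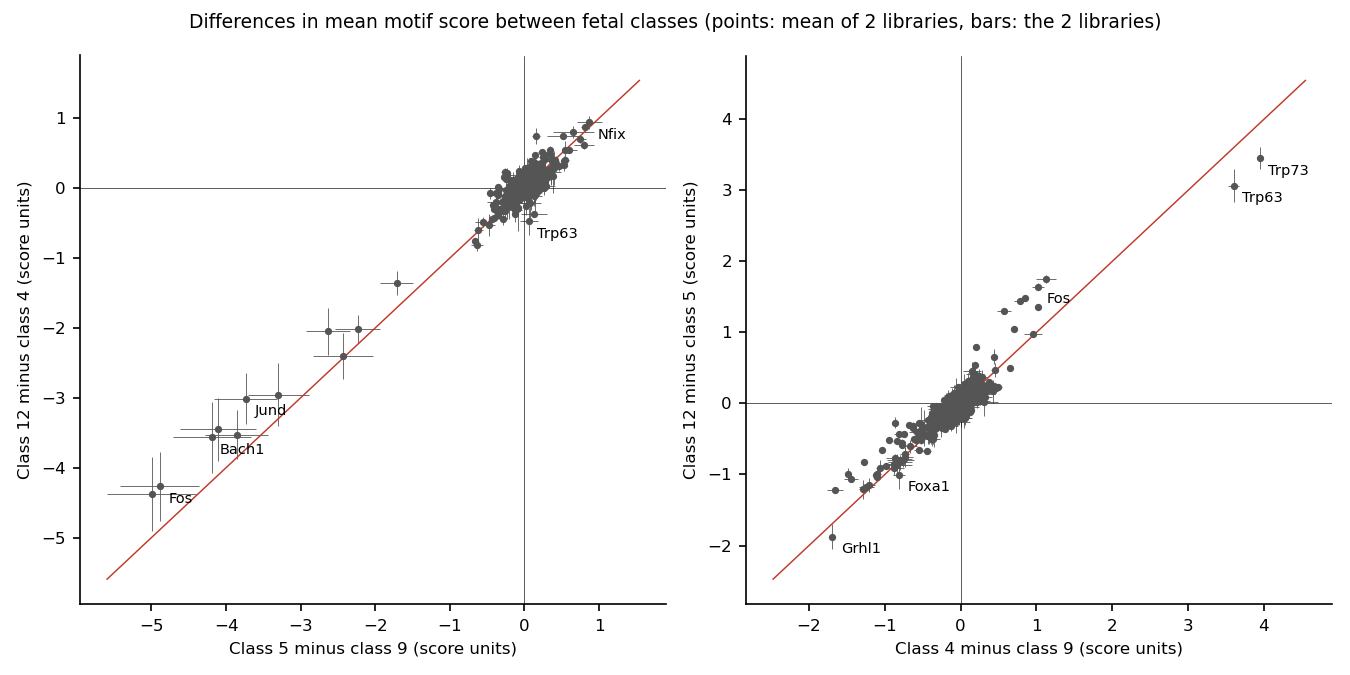
Differences in mean motif score (score units) for 388 motifs: class 12 minus class 4 against class 5 minus class 9 (left), and class 12 minus class 5 against class 4 minus class 9 (right). Points are means of the 2 fetal libraries, bars span the 2 libraries, and the red line marks equal differences; most points lie near the line in the left panel (median gap 0.09), while the Jund point, at 0.72, is the farthest from it.

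No motif set class 12 apart from all other large fetal classes. By the rule of at least 1 unit beyond each of classes 4, 5 and 9, 0 motifs were higher (0%) and 0 lower (0%), and a rule of 0.5 units also gave 0 and 0. Smaller excesses in both libraries were found for 43 motifs above and 43 below the 3 classes. The largest excess was that of Pou2f1, a ubiquitous octamer-binding factor, at 0.22 units over the next class. The largest deficit was that of Creb3, a membrane-bound factor of the secretory stress response, which averaged -1.07 and -1.21 in class 12 and -0.52 and -0.80 in class 4, 0.48 units lower.

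Motifs of SOX factors, a family with roles in epithelial progenitors, differed by less than 1 unit. All 5 listed SOX motifs (Sox4, Sox9, Sox10, Sox11 and Sox12) were higher in class 12 than in class 4 and in class 5 than in class 9 in both libraries, as were 34.0% of the 388 motifs. Sox4 averaged 1.72 and 1.75 in class 12 and 1.62 and 1.90 in class 5, compared with 0.84 and 0.87 in class 4 and 0.86 and 1.03 in class 9. Classes 12 and 5 overlapped at this motif. Sox9 averaged 1.86 and 1.801 in class 12 and 1.21 and 1.04 in class 4. The 3 distinct motif columns of nuclear factor I (Nfia, Nfic and Nfix) lay between classes 4 and 5 in both libraries, as did 23.5% of the 388 motifs. Nfix averaged 1.04 and 1.66 in class 12, above the 0.19 and 0.63 of class 4 and below the 2.13 and 3.00 of class 5. The library values of Nfix in class 12 overlapped with the 1.43 and 1.97 of class 9. The Ctcf score, for the insulator protein, was 0.16 and 0.10 in class 12 and -0.47 and -0.76 in class 4. The hormone receptor motifs Esr1 (-1.26 and -1.43) and Pgr (-0.19 and -0.05) gave no high score in class 12, and the scores of Tead4 (-0.26 and -0.10), Lef1 (0.33 and 0.35) and Gata3 (0.50 and 0.14) were small.

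The lineage of class 12 was also read from regions chosen without any fetal nucleus. Among 10231 distal regions with enough reads in the adult libraries, 789 were at least 2-fold higher in adult basal nuclei (classes 1 and 8) than in either luminal group, and higher in each library, 423 in adult luminal progenitor nuclei (classes 3 and 7) and 612 in adult mature luminal nuclei (classes 2 and 11). For each nucleus, the reads in these sets were summed and the share of each set was taken. The median basal share of class 12 nuclei was 69.1% and 69.3%, the quartiles in replicate 1 being 64.3 and 76.7%. Class 4 gave 67.5% and 67.1%, class 5 gave 44.3% and 46.6%, class 9 gave 42.0% and 42.9%, and the adult basal class 1 gave 82.2% and 82.1%. The basal set had the highest share in 100% of class 12 nuclei in both libraries, in 100% and 99.7% of class 4 nuclei and in 56.2% and 61.1% of class 5 nuclei. It also led in 54.5% and 64.0% of class 9 nuclei and in 87.0% and 81.8% of the fetal nuclei of class 6. As the largest set, with 789 regions, it can lead in nuclei that are not basal.

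The luminal progenitor set took a median of 19.8% and 21.1% in class 12, near the 18.8% and 19.03% of class 4 and well under the 42.3% and 40.3% of class 5. The mature luminal set took 9.65% and 9.09%, lower than the 13.6% and 13.9% of class 4 and the 13.3% and 12.4% of class 5. Class 12 was therefore on the level of class 4 in the basal and progenitor sets, with interquartile ranges that overlapped. By its share of set reads it was the lowest of classes 4, 5, 9, 12 and 13 in the mature luminal set. As a share of all distal reads, the mature luminal set made up 0.38% and 0.33% in class 12, near the 0.40% and 0.39% of class 5. A nucleus of class 12 had a median of 92.5 and 103 reads in the 3 sets together, and as a share of all its distal reads the basal set made up 2.66% and 2.48%, against 2.89% and 2.76% in class 4. No doublet caller was run. The median depth of class 12 nuclei was below that of class 4 in replicate 1 and near it in replicate 2, and their progenitor share was nearer to that of class 4 than to that of class 5. The part of mixed barcodes was not tested.

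**Figure D3:**
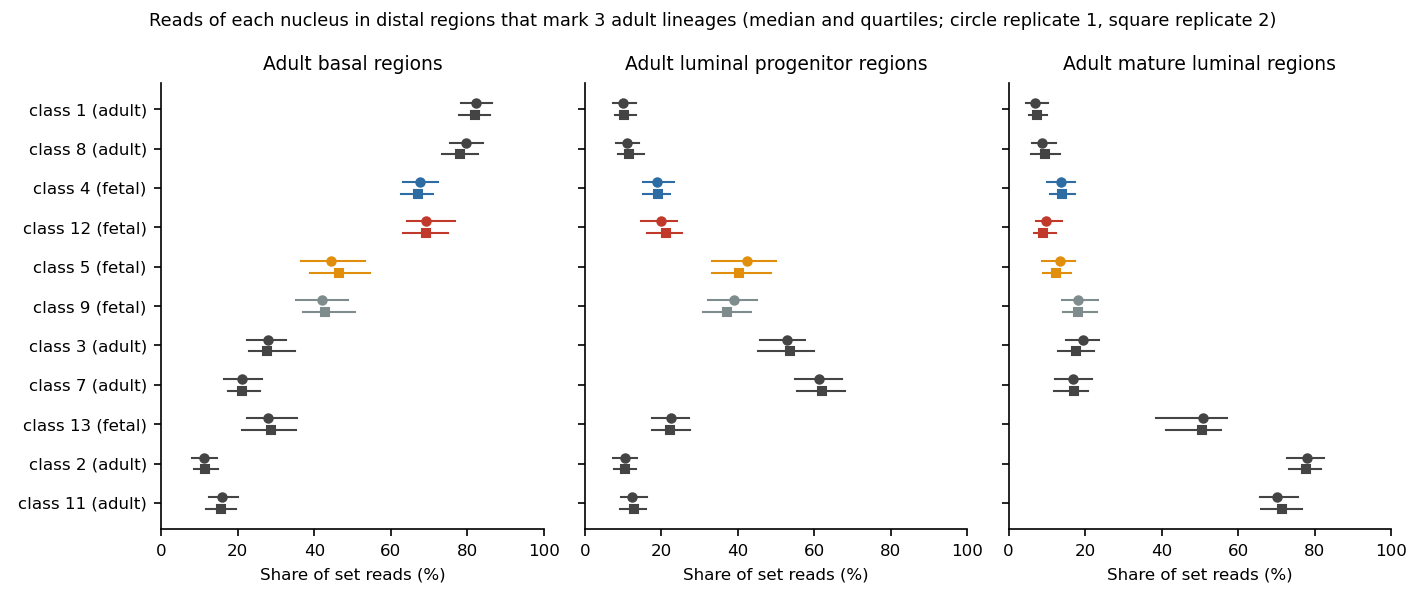
Share of each nucleus' reads (horizontal axis, percent of reads in the 3 region sets) in distal regions that mark adult basal, luminal progenitor and mature luminal nuclei, by class (vertical axis). Symbols are medians over nuclei in each library (circle replicate 1, square replicate 2) and lines are quartiles; class 12, in red, sits beside class 4 near 69% in the basal set.

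Reads over gene spans, the annotated gene with 2000 bases on either side, were next compared as CPM, the count scaled to the total reads of the class and library, and levels were compared only within a gene. The 4 markers proposed for the class had their highest level of all 14 classes in class 12. Mmp7, a secreted matrix metalloprotease, stood at 14.3 and 21.6 CPM in class 12, above the 4.12 and 9.97 of class 4, the 9.84 and 7.14 of class 5 and the 9.52 and 11.7 of class 9, with no overlap. Mgp, the matrix Gla protein that inhibits calcification, stood at 23.8 and 32.6 CPM, above every library of classes 4, 5 and 9, the highest of which was 17.5, while class 13 had a mean of 21.7. Tmprss5, a membrane serine protease, gave 50.8 and 49.1 CPM in class 12 and 51.5 and 29.0 in class 4, which overlap. Krt40, a hair-type keratin, gave 27.5 CPM in replicate 2 but 7.94 in replicate 1, where class 4 reached 14.4. Without replicate 2 its log2 difference from the mean of the 3 classes was below 0. The markers thus rest on a modest excess, between 0.49 and 0.91 on the log2 scale, and 2 of 4 lay at least 0.5 above that mean in both libraries, beside 1.36% of all 14809 spans tested. The spans were proposed for this class, and Mmp7 passed the minimum of 10 CPM over the 4 classes only through class 12, so nothing is read from that share.

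Basal genes were mostly more open in class 12 than in classes 5 and 9, with no common direction against class 4. Of 13 basal markers tested, 1 (Trp63) lay at least 0.5 above the mean of the 3 classes in both libraries and 0 lay as far below (1.36% and 2.04% of all spans did). In the pairwise comparisons, 9 lay above class 5 in both libraries and 0 below, with a median log2 difference of 0.48. Over all 14809 spans 21.6% lay above class 5 and 37.1% below, with a median of -0.08. Against class 9, 8 markers lay above and 2 below (26.7% and 32.9% of all spans). Against class 4, 3 lay above and 3 below with a median of -0.07, while 37.1% of all spans lay above and 20.2% below, with a median of 0.10. An excess over class 5 was not particular to the basal list. Of 5 endothelial genes tested, 4 lay above class 5 in both libraries and 0 below (median 0.64), with 4 and 0 against class 9. Of 6 fibroblast genes, 4 lay above class 5 and 1 below (0.49), and of 4 immune genes 3 and 1 (0.54). The hair follicle, skin epidermis, nerve and melanocyte lists had more genes below class 5 than above it. The Trp63 span itself held 154 and 157 CPM in class 12, near the 137 and 162 of class 4 and above the 82.3 and 78.5 of class 5. Acta2, the smooth muscle actin of myoepithelial cells, stood at 38.1 and 90.9 CPM in class 12, 44.3 and 57.9 in class 4 and 16.1 and 16.4 in class 5. Its class 12 libraries differed by more than its distance from class 4. Cdh3, P-cadherin, gave 149 and 108 CPM, above all libraries of the 3 classes, whose highest value was 105.

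Krt5 and Krt17, keratins found in basal cells, were lower in class 12 than in class 4. The Krt5 span held 12.7 and 10.1 CPM in class 12, lower than the 20.6 and 25.7 of class 4, and Krt17 held 23.8 and 15.1 against 55.6 and 32.2. Krt14 stood at 46.1 and 40.8 CPM, overlapping with class 9 (46.5 and 37.1), and in replicate 1 above and in replicate 2 below class 4 (44.3 and 47.0). Myh11, the smooth muscle myosin, gave 15.9 and 37.2 CPM, below class 4 in replicate 1 and above it in replicate 2. In adult basal class 1 the means were 70.0 CPM at Krt5, 113 at Krt17 and 120 at Myh11. At Krt14 the gap was smaller, with means of 43.5 CPM in class 12, 79.0 in class 1 and 82.6 in class 8. Short spans with few reads, Krt5 and Cnn1 among them, were the least precise, and Cnn1 was under the minimum level.

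Luminal genes were low in class 12 as in class 4. Of 8 luminal markers, 6 lay at least 0.5 below the mean of the 3 classes in both libraries (2.04% of all spans did), and 0 lay as far above. Krt18, a simple epithelial keratin, gave 9.53 and 10.1 CPM in class 12 and 12.4 and 8.36 in class 4, compared with 42.9 and 35.3 in class 5 and 40.9 and 41.9 in class 9. Krt19 gave 3.18 and 10.1 CPM, class 4 gave 19.6 and 4.83, and classes 5 and 9 gave 19.7 or more. The tight junction gene Cldn3 stood at 31.8 and 26.6 CPM in class 12 and at 83.5 or more in classes 5 and 9. Epcam, the surface protein used for the sort, was open in class 12 at 76.3 and 62.0 CPM, the lowest values among the 4 classes. Elf3, an epithelial ETS factor, was the exception of the list with 44.5 and 34.0 CPM, above the 26.8 and 18.7 of class 4.

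Among luminal progenitor genes, 6 of 8 lay below class 5 and 7 of 8 below class 9 in both libraries, as did 37.1% and 32.9% of all spans. Ehf, an ETS factor, stood at 12.7 and 57.8 CPM in class 12 against 122 and 143 in class 5, and its libraries bracketed the 39.1 and 38.0 of class 4. Aldh1a3, a retinaldehyde dehydrogenase of progenitors, gave 46.1 and 40.8 CPM, lower than every library of classes 4, 5 and 9, while adult class 8 had a mean of 28.9. The casein gene Csn3 was below class 5 too (54.5 and 59.6 CPM) but above class 4, with 46.1 and 37.2 CPM in class 12 and 10.3 and 30.2 in class 4. Mature luminal genes gave no common direction, with 3 of 8 above class 9 and 3 below in both libraries, beside 26.7% and 32.9% of all spans. Tnfsf11, the hormone-induced ligand RANKL, was high in classes 12 (31.8 and 26.6 CPM) and 4 (29.9 and 22.2) and low in class 5 (13.4 and 13.2), and Esr1 gave 82.6 and 104 CPM in class 12 and 103 and 104 in class 4.

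**Figure D4:**
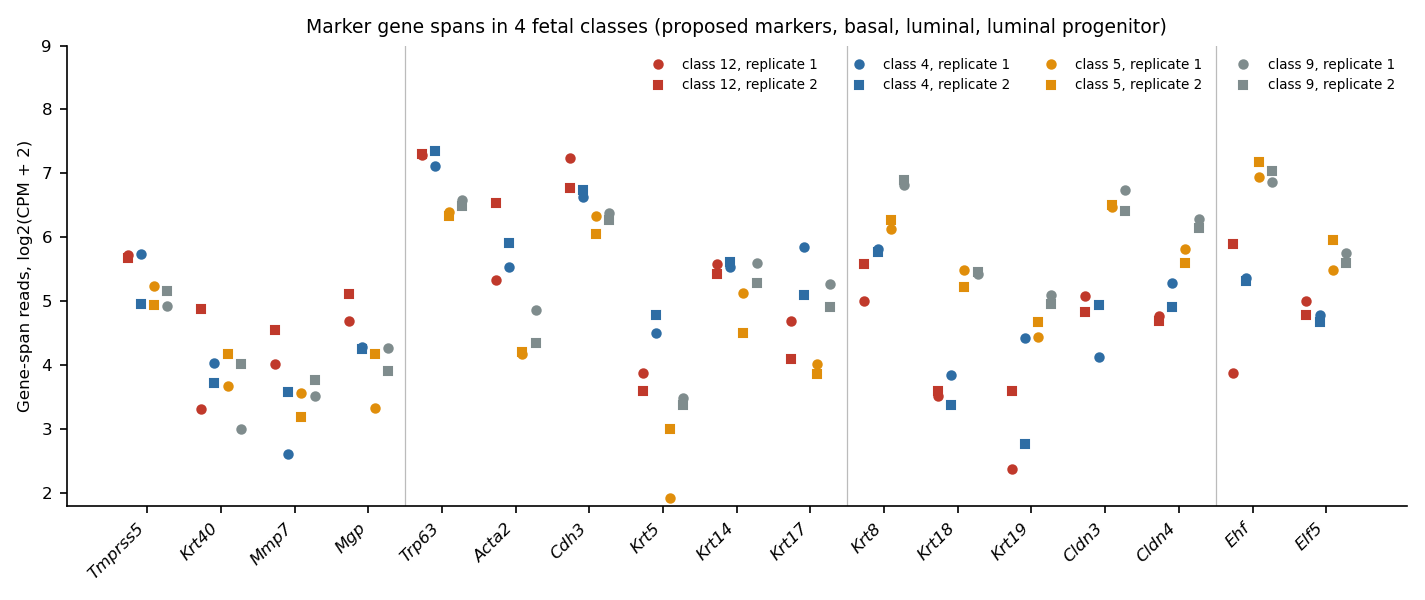
Level of 17 marker gene spans (vertical axis, log2 of CPM plus 2) in each fetal library of classes 12, 4, 5 and 9 (circle replicate 1, square replicate 2), in the order proposed markers, basal, luminal and luminal progenitor genes. Class 12, in red, stands with class 4 at Trp63, Krt18 and Elf5, is highest at Mmp7 and Mgp in both libraries, and spreads widely between libraries at Acta2, Krt40 and Ehf.

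The genes that encode AP-1 and related factors gave no common order. The Fos gene span held 85.8 and 93.2 CPM in class 12, within the 106 and 71.4 of class 4, and among the 4 fetal classes its highest level was in class 5 at 185 and 191, the class with the lowest Fos motif score. Atf3, a stress-responsive leucine zipper factor, likewise stood at 100 and 60.6 CPM in class 12 and 192 and 105 in class 5. Fosl1, another FOS family member, had the order of the Fos motif score in its class means, with 62.0 and 39.0 CPM in class 12, 73.1 and 53.4 in class 4, 31.3 and 43.9 in class 5 and 60.3 and 55.7 in class 9, although libraries overlapped. The repressor gene Bach1 was lower in class 12 (81.0 and 63.8 CPM) than in class 4 (89.6 and 100.4) and class 9 (94.9 and 99.0), and near class 5 (80.5 and 60.7). Jun was nearly level between class 12 (156 and 156) and class 4 (143 and 163). In the list of 20 regulator genes, Sox8 had the largest excess over the mean of the 3 classes, with 60.4 and 29.8 CPM in class 12 and no library above 27.8 in those 3 classes, and adult class 1 had a mean of 38.5. Nfib stood at 540 and 595 CPM in class 12, above the 367 and 442 of class 4 and level with the 503 and 596 of class 5. None of the 20 passed 0.5 in both libraries in either direction, as 1.36% of all spans did upwards and 2.04% downwards.

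Of 16 genes of the Wnt and Notch pathways, which guide progenitor fate in this tissue, 9 lay above class 4 in both libraries and 2 below, beside 37.1% and 20.2% of all spans. Jag2, a Notch ligand, was the only member at least 0.5 above the mean of the 3 classes in both libraries, with 84.2 and 70.2 CPM in class 12 and at most 59.9 in those classes. Its mean was 77.2 CPM in class 12, 87.1 in adult class 1, 73.9 in adult class 8 and 77.0 in class 13. Axin2, a feedback inhibitor of Wnt signalling, gave 98.5 and 53.2 CPM and no more than 51.0 in classes 4, 5 and 9, while class 6 had a mean of 86.7 and adult class 1 of 66.8. Hey1, a Notch target, gave 96.9 and 58.3 CPM, of which the second was below the 61.4 of class 5 in that library, and class 13 had a mean of 82.8. For these last genes replicate 1 was the higher library. The receptor gene Notch1 stood between classes 4 and 5, with 173 and 120 CPM in class 12, 79.3 and 90.1 in class 4 and 222 and 228 in class 5. Cell cycle genes (0 of 4) and genes of the fetal mammary gland (0 of 11) had no member past 0.5 in both libraries in either direction. With 1.36% of all spans as far above and 2.04% as far below, counts of 0 in lists this short say little. By the median log2 level over the listed genes, class 12 was the highest of all 14 classes in the fetal mammary list, at 6.22. Class 9 came next at 6.01. In the Wnt and Notch list class 12 was also the highest, at 6.31, with adult class 1 next at 6.24. Cdk1 stood at 46.1 and 42.2 CPM in class 12, above the 43.8 and 37.1 of class 5. Mki67 stood at 30.2 and 25.2, below the 34.0 and 37.5 of class 5.

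Markers of cell types outside the mammary epithelium were measured as lists. Skin epidermis genes summed to 130 and 122 CPM in class 12, 111 and 111 in class 4, 126 and 127 in class 5 and 120 and 116 in class 9. The median log2 level over the listed genes was 4.06 in class 12, the highest of all 14 classes. Class 12 also held this first rank in the lists of fetal mammary and of Wnt and Notch genes. In the skin epidermis genes class 10 came next at 3.57, and class 4 had 3.51. In this list 5 of 10 genes were under the minimum level, Ivl had 0 reads in class 12, Krt15 (19.1 and 15.6 CPM) stood above every library of classes 4, 5 and 9, the highest at 9.65, and Sbsn lay at least 0.5 below the mean in both libraries. Adult basal class 8 had a Krt15 mean of 22.1 CPM, above the 17.3 of class 12. Hair follicle genes summed to 521 and 524 CPM, between the 490 and 483 of class 4 and the 564 and 538 of class 5, and the inner root sheath keratins Krt25 and Krt27 were under the minimum. Of 3 sebaceous or sweat gland genes tested, the lipid desaturase Scd1 gave 71.5 and 51.4 CPM in class 12 against 37.1 and 39.6 in class 4 and a mean of 94.4 in adult class 7, while the sebocyte genes Mc5r and Awat1 were under the minimum.

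Fibroblast genes summed to 197 and 178 CPM in class 12, 145 and 175 in class 4 and 137 to 143 in classes 5 and 9. Col1a1 (38.1 and 38.1 CPM) was at least 0.5 above the mean in both libraries and Pdgfra gave 85.8 and 73.4 CPM, whereas Dpt (3.18 and 11.0) was below both libraries of class 4 (15.4 and 18.98), and Lum and Col3a1 were under the minimum. Such genes were open despite the sort in class 6, which held 23 and 33 fetal nuclei. That class had adult means of 87.2 CPM at Col3a1 and 135 at Dpt, and of 13.4 at Epcam, against 69.1 at Epcam in class 12. At Col1a1, Col1a2 and Pdgfrb its means were 86.5, 92.2 and 107 CPM, against 38.1, 14.7 and 25.3 in class 12. At Pdgfra, however, class 12 was near class 6, with means of 79.6 and 81.6 CPM. Classes 4, 5 and 9 had at most 53.7 CPM at Pdgfra. Endothelial genes summed to 153 and 148 CPM against 139 and 125 in class 4, with 0 of 5 at least 0.5 above the mean in both libraries. Of 4 immune genes tested, 0 lay at least 0.5 above or below the mean in both libraries, Ptprc, a surface protein of leukocytes, gave 12.7 and 14.2 CPM in class 12 against 11.3 and 28.0 in class 4, and Tyrobp and Cd3e were at 3.18 CPM or less in class 12. Nerve and Merkel cell genes (337 and 364 CPM), melanocyte genes (203 and 236 CPM) and adipocyte genes (82.6 and 57.8 CPM) had no member past 0.5 in both libraries in either direction. Of the 43 genes tested in these 9 lists, 3 (Krt15, Scd1 and Col1a1; 6.98%) lay at least 0.5 above the mean in both libraries, beside 1.36% of all spans, and 1 (Sbsn; 2.33%) lay as far below, beside 2.04%. Krt15, at class means of 8.94, 7.14 and 8.54 CPM in classes 4, 5 and 9 and 17.3 in class 12, passed the minimum only through class 12, so the first share is not read as a difference from all spans. The part of other cell types in the values of class 12 was not tested beyond these values.

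Distal regions chosen by a difference between other classes gave the same arrangement as the motifs, a reading chosen after the motif scores were seen. Both rest on the accessibility of the same nuclei, so the regions are no independent support for the motifs. The minimum level was taken over classes 4, 5, 9 and 12, so the classes read also had a part in which regions were tested. Of the 10466 regions tested, 788 reached the minimum only through class 12. In 405 regions at least 2-fold higher in class 5 than in class 9, the median log2 ratio of class 12 to class 4 was 0.53 in replicate 1 and 0.57 in replicate 2, and 62.2% of the regions were higher in class 12 in both libraries, against 37.9% of all 10466 regions tested. In 551 regions lower in class 5 than in class 9 the median was -0.49 and -0.58, with 62.4% lower in both libraries against 20.6% of all regions. In 597 regions higher in class 4 than in class 9 the ratio of class 12 to class 5 had a median of 1.16 and 1.05 (82.4% higher in both, 29.8% of all), and in 823 regions lower in class 4 it was -0.85 and -0.71 (72.5% lower in both, 32.8% of all). Choosing the regions in 1 library and reading them in the other, among the same tested regions of both libraries, kept all 4 directions. The medians were between 0.41 and 0.51 and between -0.41 and -0.30 for the first pair of sets. Over the second pair they were 0.68 and 1.23, and -0.85 and -0.44.

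**Figure D5:**
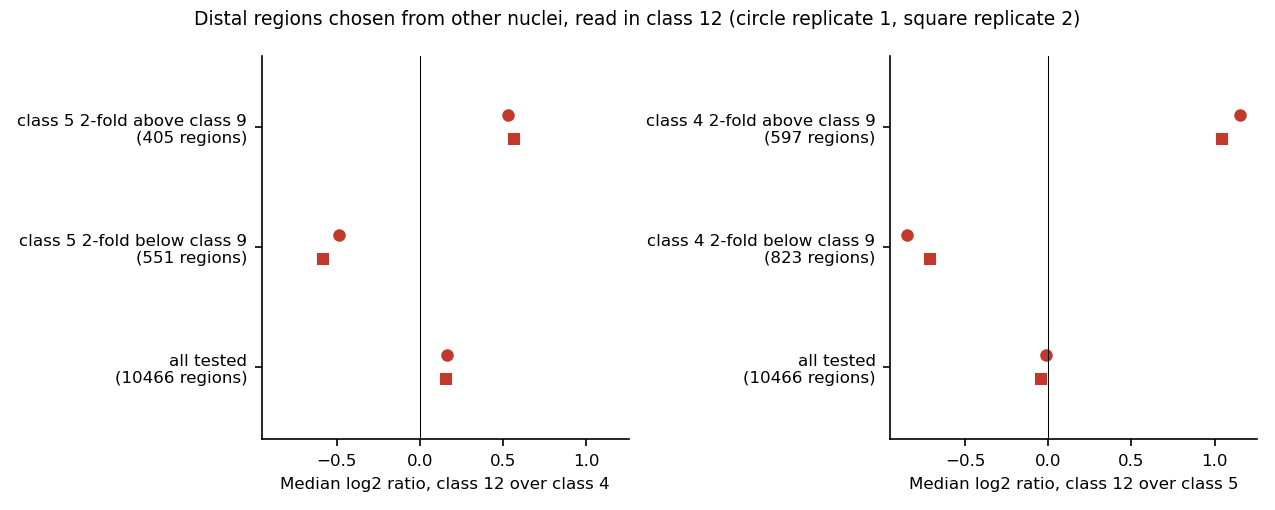
Median log2 ratio of accessibility in class 12 over class 4 (left) and over class 5 (right), per fetal library (circle replicate 1, square replicate 2). The distal regions were chosen by differences between the other classes and are set beside all regions tested. The minimum level of a tested region was taken over all 4 classes, class 12 included. The sets chosen as higher lie to the right of all tested regions and the sets chosen as lower to the left, in both libraries.

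Promoter regions showed the second arrangement more weakly and the first in part. Of the 11994 promoter regions tested, 191 reached the minimum only through class 12. In 337 promoter regions higher in class 4 than in class 9 the ratio of class 12 to class 5 had a median of 0.67 and 0.51, and in 183 lower in class 5 than in class 9 the ratio of class 12 to class 4 was -0.49 and -0.46. In the 93 promoter regions higher in class 5 than in class 9, however, that ratio was 0.06 and 0.00, and 32.3% of them were higher in both libraries against 25.4% of all. Over 9254 distal regions whose mean over the 14 classes reached 20 CPM, the log2 levels of class 12 correlated with class 4 at r = 0.76, with class 5 at 0.74 and with class 9 at 0.69, and with the adult basal classes 8 and 1 at 0.48 and 0.41. Over 11883 promoter regions the order differed, with class 9 highest at 0.85 and classes 4 and 5 both at 0.84. The libraries of class 12 correlated with each other at 0.73 in distal and 0.72 in promoter regions, values below its r with classes 4 and 5. The fetal classes share their libraries, and larger classes have less counting error, so this order is a description.

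A small gap of the same direction was found at promoters with an AP-1 site. The RefSeq table of promoter windows for GRCm38.p6, which is the mm10 assembly, gives 250 bases before and 50 after each gene start, and 7.81% of 32817 windows held the AP-1 site TGANTCA, which is its own reverse complement. Among 12529 windows with enough reads, the 611 with the site had a median log2 ratio of class 12 to class 4 that was 0.15 lower than in windows without it (0.09 and 0.17 lower in replicates 1 and 2). The corresponding gap between classes 5 and 9 was 0.20. For the letters searched for NFI (TTGGCA), SOX (CCATTGT), ETS (CCGGAAGT), TEAD (GGAATG) and GRHL (AACCGGTT), all on both strands, the gap in class 12 over class 4 was between -0.06 and 0.06 in the mean of the libraries. In replicate 1 the gaps of SOX (0.12) and GRHL (-0.12) were larger than that of AP-1, and in replicate 2 they were -0.01 and 0.07. A match is a description of the letters and not a binding site. The 4 windows printed here had the largest deficit in class 12 relative to class 4 among 65 windows with the site and a mean of at least 40 CPM that were lower in class 12 than in class 4 and in class 5 than in class 9 in both libraries. The 65 windows are only the pool of that choice. Windows without the site were not counted in this way, so nothing is read from their number. They are shown so that the sites, in capitals, can be seen in place, as the 250 bases before the gene start on the strand of the gene.
Gm14137 (chr2:119174259-119174508, plus strand): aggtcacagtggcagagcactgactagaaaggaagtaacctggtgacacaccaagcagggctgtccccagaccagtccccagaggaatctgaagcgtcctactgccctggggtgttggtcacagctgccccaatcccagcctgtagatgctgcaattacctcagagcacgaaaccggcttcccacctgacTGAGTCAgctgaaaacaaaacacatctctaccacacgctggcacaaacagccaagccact
Gm40491 (chr12:86833764-86834013, minus strand): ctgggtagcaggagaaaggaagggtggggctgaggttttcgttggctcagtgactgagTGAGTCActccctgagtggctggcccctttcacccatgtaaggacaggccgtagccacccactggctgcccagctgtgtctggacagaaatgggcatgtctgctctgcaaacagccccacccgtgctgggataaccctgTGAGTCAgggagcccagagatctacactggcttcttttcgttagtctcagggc
Zeb2 (chr2:45110278-45110527, minus strand): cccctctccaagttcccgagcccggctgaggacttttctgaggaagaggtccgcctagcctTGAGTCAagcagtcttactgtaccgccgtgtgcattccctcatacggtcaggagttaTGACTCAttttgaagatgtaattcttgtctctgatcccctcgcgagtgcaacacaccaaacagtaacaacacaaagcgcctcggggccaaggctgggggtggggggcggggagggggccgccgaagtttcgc
Fgd4 (chr16:16560220-16560469, minus strand): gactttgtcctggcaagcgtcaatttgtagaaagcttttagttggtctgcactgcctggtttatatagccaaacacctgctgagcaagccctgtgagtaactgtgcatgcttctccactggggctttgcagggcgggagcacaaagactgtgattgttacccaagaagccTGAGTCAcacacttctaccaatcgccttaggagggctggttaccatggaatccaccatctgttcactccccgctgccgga

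At the Fgd4 window, upstream of a gene for an exchange factor of the small GTPase CDC42, class 12 had 4 and 27 reads, or 35.1 and 76.3 CPM of all window reads. Class 4 had 165 and 183 CPM, class 9 had 130 and 111, and class 5 had 79.1 and 78.7, so classes 12 and 5 lay below classes 4 and 9 in both libraries. The window of Zeb2, a repressor of epithelial genes, gave 26.3 and 14.1 CPM in class 12 and 103 and 48.6 in class 4, on 3 and 5 reads in class 12. Gm14137 gave 0 and 1 read in class 12 against 7 and 18 in class 4 and 55 and 89 in class 9. At Gm40491 the libraries of class 12 differed, with 0 reads in replicate 1 and 16 in replicate 2. These 4 were chosen by the values they show, and they carry no test.

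Few single features stood apart from all 3 fetal classes. Among gene spans, 1 of 14809 was at least 2-fold higher in class 12 than in each of classes 4, 5 and 9 (0.00675%) and 21 were at least 2-fold lower (0.142%). The higher one was Zfp57, a zinc finger protein that maintains imprints, at 27.0 and 17.0 CPM in class 12 and between 4.12 and 9.99 in classes 4, 5 and 9, with a mean of 14.1 in adult class 8. It passed the minimum of 10 CPM only through class 12. Its span overlaps with those of H2-M5 and Mog, so reads may belong to these. The lowest was Gm14137, at 0 and 1.84 CPM in class 12 and 7.15 or more in classes 4, 5 and 9, whose span overlaps with Gchfr and Dnajc17. Plet1, a surface protein of progenitors, was low in both libraries, on 11 and 45 reads in class 12. It gave 17.5 and 20.7 CPM in class 12 and 58.7 and 93.0 in class 4. Class 5 gave 43.8 and 49.95, and class 9 gave 103 and 134. Fam71a (3.18 and 2.75 CPM), Fam43a (7.94 and 10.6) and Tbc1d7 (4.77 and 13.8) were low in both libraries, while Phka1, Fcmr and Nlrx1 had 0 reads in replicate 1 and 11.0, 8.72 and 16.5 CPM in replicate 2. In replicate 2 alone, 3 of the 21 lower spans and 0 of the 1 higher span kept the 2-fold call.

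Of 10466 distal regions, 53 were called higher in class 12 (0.506%) and 81 lower (0.774%). Most of these calls leaned on replicate 1, the smaller library: 46 of the 53 and 62 of the 81 were called there alone, but 4 and 22 in replicate 2 alone. Region levels are CPM of the reads in regions of the same kind. The 53 regions held a median of 56.3 CPM in class 12, 20.3 in class 4, 16.8 in class 5 and 14.005 in class 9. In the adult basal classes 8 and 1 the median was 26.3 and 19.5 CPM, and in the adult mature luminal classes 2 and 11 it was 1.23 and 3.02. Of the 53 regions, 38 passed the minimum mean of 20 CPM over the 4 fetal classes only through class 12, so nothing is read from their count or these medians. The log2 excess of the called regions started at 1.00 and had a median of 1.12.

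Distal regions were placed by gene bodies of GRCm38.p6 without exon annotation, so exon and intron were not told apart. The largest excess lay inside the Nav2 gene (chr7:49314082-49315081), with 85.9 and 26.7 CPM in class 12 from 22 and 23 reads, against means of 14.8, 8.91 and 4.44 in classes 4, 5 and 9. A region 11119 bases from Rbms3 (chr9:117641032-117642031) gave 82.0 and 36.0 CPM and at most 3.8 in any adult class or class 13. Regions inside Pbx3 (chr2:34178334-34179333; 58.6 and 37.2 CPM) and 5028 bases from Tram2 (chr1:21084253-21085252; 62.5 and 29.1 CPM) had means of 38.5 and 30.3 CPM in adult class 8. The remaining higher regions by rank lay inside Eya2 (chr2:165745776-165746775; 66.4 and 31.4 CPM), 25486 bases from Stx11 (chr10:12911732-12912731; 82.0 and 46.5 CPM) and 10139 bases from Dcstamp (chr15:39734792-39735791; 74.2 and 50.004 CPM). A region 75298 bases from Sema6a (chr18:47168957-47169956) gave 54.6 and 81.4 CPM from 14 and 70 reads. Several of these were open in adult nuclei too: the Stx11 region had a mean of 56.8 CPM in class 1, the Dcstamp region 41.5 in class 1 and 40.7 in class 8, and the region near Sema6a 34.1 in class 8. Replicate 1 was higher than replicate 2 in the other 7 regions, and lower in that near Sema6a. Per the authors' deposited co-accessibility scores over all nuclei, the Dcstamp region was linked with a promoter region overlapping an end of Dcstamp (score 0.23), the region near Sema6a with one inside Sema6a (score 0.23) and the Stx11 region with one at Plagl1 (score 0.17).

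The largest deficits rested on a handful of reads in class 12. A region inside Frmpd1 (chr4:45195268-45196267) had 0 and 2 reads in class 12 and means of 22.4, 33.5 and 35.7 CPM in classes 4, 5 and 9. A region 148257 bases from Gfra2 (chr14:71128097-71129096) had 0 and 7 reads, and 1 at 16985 bases from Cxcl17 (chr7:25429871-25430870) had 0 and 10 reads, with 5.81 CPM in the mean of class 12 and 31.8 to 83.3 in the 3 fetal classes. The region inside Tspan14 (chr14:40914268-40915267) gave 7.81 and 11.6 CPM in class 12, 43.1 in class 4, 52.4 in class 5 and 51.7 in class 9, and it had 0 CPM in adult class 1.

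Of 11994 promoter regions, 20 were called higher (0.167%) and 131 lower (1.09%), of which 1 and 26 were also called in replicate 2 alone. When levels were scaled to all reads, 3931 regions reached the minimum and 0 were called in either direction. Of the 20, 11 passed the minimum only through class 12. The 131 lower regions held a median of 8 reads in class 12. The largest excesses were 96 bases from Aldh3a1 (chr11:61207415-61208414; 84.8 and 37.7 CPM), at an end of Gpatch1 (chr7:35317788-35318787; 52.2 and 37.7 CPM), and inside Arhgdib (chr6:136939720-136940719; 78.2 and 48.2 CPM). They were followed by regions inside Fblim1 (chr4:141604110-141605109; 97.8 and 31.4 CPM), 6178 bases from Cst3 (chr2:148864545-148865544; 45.6 and 52.4 CPM) and inside Wdr95 (chr5:149527763-149528762; 117 and 44.0 CPM). In the other 3 fetal classes these 6 regions had means between 10.3 and 32.4 CPM. Other classes reached levels closer to class 12, with 55.4 CPM at the Arhgdib region, 45.2 at the Cst3 region and 55.7 at the Wdr95 region in class 8. At the Gpatch1 region classes 1, 13 and 14 had 41.9, 43.6 and 53.4, the last above the mean of 44.9 in class 12. The deficits were led by regions at an end of Sult2b1 (chr7:45759015-45760014; 0 and 4 reads in class 12), at an end of Col6a2 (chr10:76622832-76623831) and inside Rnf217 (chr10:31606773-31607772), both with 0 reads in class 12, and at an end of Tmem232 (chr17:65540461-65541460; 0 and 2 reads).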

How the data were processed

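Per the submitters' processing notes, Bowtie2, MACS2, bedtools and the mm10 build were used, with no role given. The deposited read lists give an interval and a barcode per read, of 163 to 200 bases, and reads of the listed barcodes were used as they stood. The authors' deposited table holds a chromVAR score per motif and nucleus, the count of reads per nucleus, which equalled the reads of the barcode in all 7846 nuclei, and the class. The authors' deposited Cicero co-accessibility score covers pairs of regions. A gene score table with 7846 numbered columns was not used because they name no nucleus.

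Reads overlapping a feature by at least 1 base were summed per library and class and scaled to CPM, per reads in regions of that kind or, for gene spans (21887 protein-coding RefSeq genes), per all reads. Levels are means of the 2 fetal libraries with equal weight. Log2 values carry a pseudocount of 5 CPM (regions) or 2 CPM (spans), after a minimum mean of 20 or 10 CPM over classes 4, 5, 9 and 12. A call needed a 2-fold gap to each of classes 4, 5 and 9 and that direction in each library. The rule for a call was tested on simulated counts with known changes. These changes were all well above 2-fold and the libraries were simulated alike, so calls near 2-fold and differences between libraries were not tried. The counting of reads over features was not tested. No doublet caller was run, and the deposited classes were taken as they stood. Alternatives to the pseudocount, minimum, scaling, depth, weighting of libraries and library set were tried.

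The members, gene lists and rules were chosen with earlier results of these data known. The rule named the proposed markers, up to 12 called spans by excess and 8 by deficit, the 2 highest and 2 lowest members of each list, 8 and 4 distal and 6 and 4 promoter regions by size, and 32 motifs, of which 31 had a column. Other list members, motifs called between pairs of classes and the promoter windows were added after values were seen. The windows to print were chosen outside chromosome 18. Of the genes listed, H19 was not among the spans. The tools were matplotlib 3.10.9, scipy 1.17.1, pandas 2.3.3, numpy 2.4.6 and Python 3.11.15.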

Additional observations from a re-analysis of the deposited data

Results flagged for a closer look

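In 2 gene spans of the gene lists, the difference of class 12 from class 4 and that of class 5 from class 9 had opposite directions in both libraries and a size of at least 0.5 each on the log2 scale. Itgam, an integrin subunit of myeloid cells, was higher in class 12 than in class 4 by 0.57 and 1.15 in replicates 1 and 2 and differed by -1.05 and -0.22 between classes 5 and 9, so the effects lay 1.49 apart. Wnt10b, a Wnt ligand of the early mammary bud, was higher in class 12 by 0.71 and 0.50 and differed by -0.56 and -0.49 between classes 5 and 9, a distance of 1.13. These differences between effects were not tested, both spans hold few reads, and 140 spans were looked at.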

How the results depend on the processing

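No called value reversed its direction. For called features this was fixed in advance where a library was left out or the pseudocount or minimum changed. The call itself needs that direction in each library. The Krt40 span, which was not called, had a log2 difference of 0.49 that was -0.26 without fetal replicate 2. Of the values of single genes, regions and motifs under the alternatives, 1816 stayed within the spread and 136 moved. That spread is the SD between the 2 libraries, so it is wide where they differ, and the Krt40 value counts as stayed. The tally does not measure stability. Of the summary values, 85 stayed and 90 moved. The cause was not tested. No paired analysis was possible because the results come from no test. Both fetal libraries hold all 4 classes, and the differences within each library are given as values.

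The counts of called features depended on most settings. Distal regions higher, 53 as reported, numbered 90 and 27 with a pseudocount 5 times smaller and 2 times larger, 249 and 6 with the minimum halved and doubled, 939 with no minimum, 2 when scaled to all reads (1809 regions then tested), 28 with libraries summed, and 37 to 345 with a library left out. Distal regions lower (81) numbered 142, 32, 313, 8, 676, 3 and 39 in that order, 122 in deep nuclei and 80 to 537 with a library left out. Promoter regions higher (20) numbered 11 with the larger pseudocount, 54, 2 and 84 with the minimum halved, doubled and dropped, 0 with the other scaling, 31 in deep nuclei, 11 with libraries summed and 14 to 185 with a library left out. Promoter regions lower (131) numbered 69, 216, 39, 277 and 0 in that order, 68 with libraries summed and 144 to 742 with a library left out. Gene spans higher (1) numbered 5 and 0 with the smaller and larger pseudocount, 9, 0 and 31 with the minimum halved, doubled and dropped, 4 with the other scaling, 6 in deep nuclei, 0 with libraries summed, 2 with the gene body alone and 1 to 64 with a library left out. Gene spans lower (21) numbered 44, 10, 38, 9, 57, 40, 45 and 6 in that order and 26 to 356 with a library left out.

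The lineage shares moved with the choice of regions. The basal share (69.2%) was 70.7% and 64.8% with the minimum halved and doubled, 85.7% with a 4-fold rule and 68.3% in deep nuclei. The progenitor share (20.5%) was 18.8%, 27.9% and 5.50% under the first 3 of these, and the mature luminal share (9.37%) was 10.3%, 0%, 4.25% and 9.94%. The basal share of class 4 moved too, to 60.0% in each library with the minimum doubled and to 85.4% and 80.3% with the 4-fold rule. Classes 5 and 9 had basal shares of at most 40.0% with the minimum doubled and at most 57.1% with the 4-fold rule.

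The following alternatives were chosen after seeing the data. In the regions higher in class 5 the ratio of 0.58 was 0.40 to 0.51 with a library left out, 0.41 and 0.51 with choice and reading in different libraries, 0.55 with classes thinned, 0.51 in deep nuclei and 0.65 with the smaller pseudocount. In those lower in class 5 (-0.53) it was -0.51 to -0.27, then -0.30 and -0.41, and -0.46 thinned. In those higher in class 4 (1.12) it was 0.79 to 1.15, then 0.68 and 1.23, 0.98 thinned, 1.03 in deep nuclei and 1.04 with the other scaling, and in those lower in class 4 (-0.76) it was -0.73 to -0.45 and then -0.44. In deep nuclei the Fos difference from class 4 was -5.34 and from class 5 2.39 (1.88 as a difference of medians), the Trp63 differences were -0.76 and 3.52, and 1 motif was higher than in class 4 (0 to 1 with a library left out). A rule of 0.5 units gave 11 motifs higher than class 4 and 36 lower than class 5.

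Replicate 1 of class 12 holds 629493 reads over 92 nuclei, so single regions with under about 20 reads are imprecise.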
